A study of Mus musculus with 12 samples.

Results

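The B cell genes Ms4a1, Cd79a, Cd79b, Pax5 and Cd22 were followed across 12 microarrays of mouse splenic dendritic cells (DCs) that lacked or carried the microRNA gene miR-142. All 5 genes were on the array, with 7 probe sets (sets of short oligonucleotides that each measure 1 transcript) of the 28898 that name a single gene, which together cover 17097 genes. The genes were picked by name as known B cell genes, with the comparison of knockout and wild-type DCs already known, in which Ms4a1 was higher in the knockout. Every value that sets knockout against wild type is therefore given as a description and supports nothing, whereas their response to lipopolysaccharide (LPS), which did not enter the choice, was tested.

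A mature B cell recognises antigen through a membrane immunoglobulin that signals through the proteins of Cd79a and Cd79b, a pair of chains that carry the receptor's signalling motifs. Pax5 encodes the transcription factor that commits progenitors to the B lineage and keeps them there, Cd22 encodes a sialic-acid-binding receptor that restrains signalling, and Ms4a1 encodes CD20, a membrane protein of B cells. B cells are among the most abundant cells of the spleen. Conventional DCs are antigen-presenting cells of the spleen. LPS, a cell wall component of Gram-negative bacteria, activates DCs and B cells alike through Toll-like receptor 4.

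The groups were miR-142 knockout (KO) DCs given LPS, unstimulated KO DCs, wild-type (WT) DCs given LPS and unstimulated WT DCs, with 3 arrays each. All mice were 10-week-old C57BL/6 males, the WT mice were littermates of the KO mice, and the DCs were taken from individual spleens by positive selection. The labels call the mice miR-142 KO and name no Cre line or cell type for the deletion, and the sources used here give neither dose nor duration for LPS. The labels call the arrays biological replicates and give each its own mouse number, while the description field speaks of T cells where all other fields speak of DCs. No probe set with a single gene name measured the miR-142 transcript, which left the genotype labels without that check.

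MiR-142 is made in blood cells, and its hairpin gives a mature strand from each arm. Both are shown because they are what the KO mice lack. The sequences are those of RefSeq on GRCm38.p6, at chr11:87756867-87756887 and chr11:87756903-87756925 on the plus strand, and capitals mark the seed (bases 2 to 8), the stretch that pairs with target messages.
mmu-miR-142a-5p: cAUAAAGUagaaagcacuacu
mmu-miR-142a-3p: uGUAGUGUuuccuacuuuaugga

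Promoter sequences in the RefSeq table were found for 3 of the 5 genes, Cd79a, Cd22 and Pax5. Each window held 250 bases before and 50 bases after the start that the table uses. For Cd79a and Pax5 this is the first base of the RefSeq gene span, and for Cd22 it lies 1314 bases inside the span. Windows were searched on both strands for the EBF motif (TCCC and GGGA with any 2 bases between them), the octamer ATGCAAAT and the ETS motif GGAAGT, which are bound by factor families that act on B cell promoters. The Cd79a and Cd22 windows are shown because these genes had the most alike profiles of any pair of different genes here once a single array was set aside. Capitals mark a GGAAGT in the Cd79a window, at chr7:24897247-24897546 on the plus strand, and an EBF match in the Cd22 window, at chr7:30878979-30879278 on the minus strand.
Cd79a promoter: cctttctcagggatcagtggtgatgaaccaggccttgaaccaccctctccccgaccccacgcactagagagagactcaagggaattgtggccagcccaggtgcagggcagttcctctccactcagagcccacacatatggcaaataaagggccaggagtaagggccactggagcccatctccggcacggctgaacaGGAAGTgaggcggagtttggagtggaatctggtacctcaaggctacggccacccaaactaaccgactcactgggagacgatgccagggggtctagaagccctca
Cd22 promoter: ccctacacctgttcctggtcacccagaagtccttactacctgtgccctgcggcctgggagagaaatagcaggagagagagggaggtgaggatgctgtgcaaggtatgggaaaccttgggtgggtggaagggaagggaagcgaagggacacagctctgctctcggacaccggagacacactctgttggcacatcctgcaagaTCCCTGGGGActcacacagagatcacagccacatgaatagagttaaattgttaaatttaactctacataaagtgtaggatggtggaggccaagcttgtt

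The GGAAGT of Cd79a began 54 bases before that start, and the EBF match of Cd22 began 49 bases before the start its window uses, inside the gene span. GGAAGT was in 23.8% of all 32851 promoter windows of the table, the EBF motif in 0.904% and ATGCAAAT in 1.74%. The Pax5 window held none of the 3 motifs, and no member window held the octamer. A match describes letters in a window only. Only these spellings were searched for, so a window without a match may still hold a site in another spelling.

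Values are log2 signals after the authors' normalisation with RMA (robust multi-array average), so a difference of 1 is a factor of 2. They are not set between probe sets, because probes differ in brightness. Array medians lay between 2.65 and 2.72. KO LPS array 2 stood apart from the others. Its correlations with the other arrays over all probe sets were 0.936 to 0.958, against 0.967 to 0.991 among the rest. Its Gapdh signal at the 3' end exceeded that in the middle of the transcript by 3.04, against 1.53 to 1.86 on the other arrays, and for actin the excess was 0.94 against 0.02 to 0.16. Results on the members that rest on this array are given with and without it, as are calls among other genes that change without it.

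All 7 probe sets had a mean over the 12 arrays above the median of all probe sets with 1 gene name (2.87), with means between 3.74 and 6.53. The B cell genes thus gave signal in DC preparations of both genotypes. In bulk RNA of this kind, fewer cells of a type and less RNA per cell cannot be told apart.

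Ms4a1 (chr19:11249679-11266149 on GRCm38.p6) was the gene with the largest difference between the genotypes, and it was higher in KO DCs. Probe set 1450912_PM_at, read 6.98, 6.69 and 7.02 in KO LPS DCs, 6.96, 6.15 and 6.79 in unstimulated KO DCs, 5.82, 6.18 and 5.79 in WT LPS DCs and 5.65, 6.18 and 5.74 in unstimulated WT DCs. After LPS the 3 KO arrays were all above the 3 WT arrays, while among unstimulated cells KO array 2 lay within the WT range. Group means were 6.90 ± 0.18 (KO LPS), 6.63 ± 0.43 (KO unstimulated), 5.93 ± 0.22 (WT LPS) and 5.86 ± 0.28 (WT unstimulated; SD, n = 3 each). KO exceeded WT by 0.97 ± 0.21 after LPS (moderated SE), a factor of 1.96, and by 0.78 ± 0.21 without stimulation.

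The second Ms4a1 probe set, 1423226_PM_at, differed less. It read 6.45, 5.78 and 6.31 in KO LPS DCs, 6.45, 5.79 and 6.18 in unstimulated KO DCs, 5.59, 5.94 and 5.15 in WT LPS DCs and 5.51, 6.07 and 5.38 in unstimulated WT DCs. In both conditions KO array 2 was lower than WT array 2, so the genotypes overlapped. After LPS the other 2 KO arrays were above all 3 WT arrays. The difference was 0.62 ± 0.25 after LPS and 0.49 ± 0.25 without it, and the LPS value was 0.82 ± 0.25 without KO LPS array 2. For both Ms4a1 probe sets the groups fell into a KO pair above a WT pair. The step between the pairs was larger than the larger SD of the neighbouring groups, and the steps within each pair were not.

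**Figure D1:**
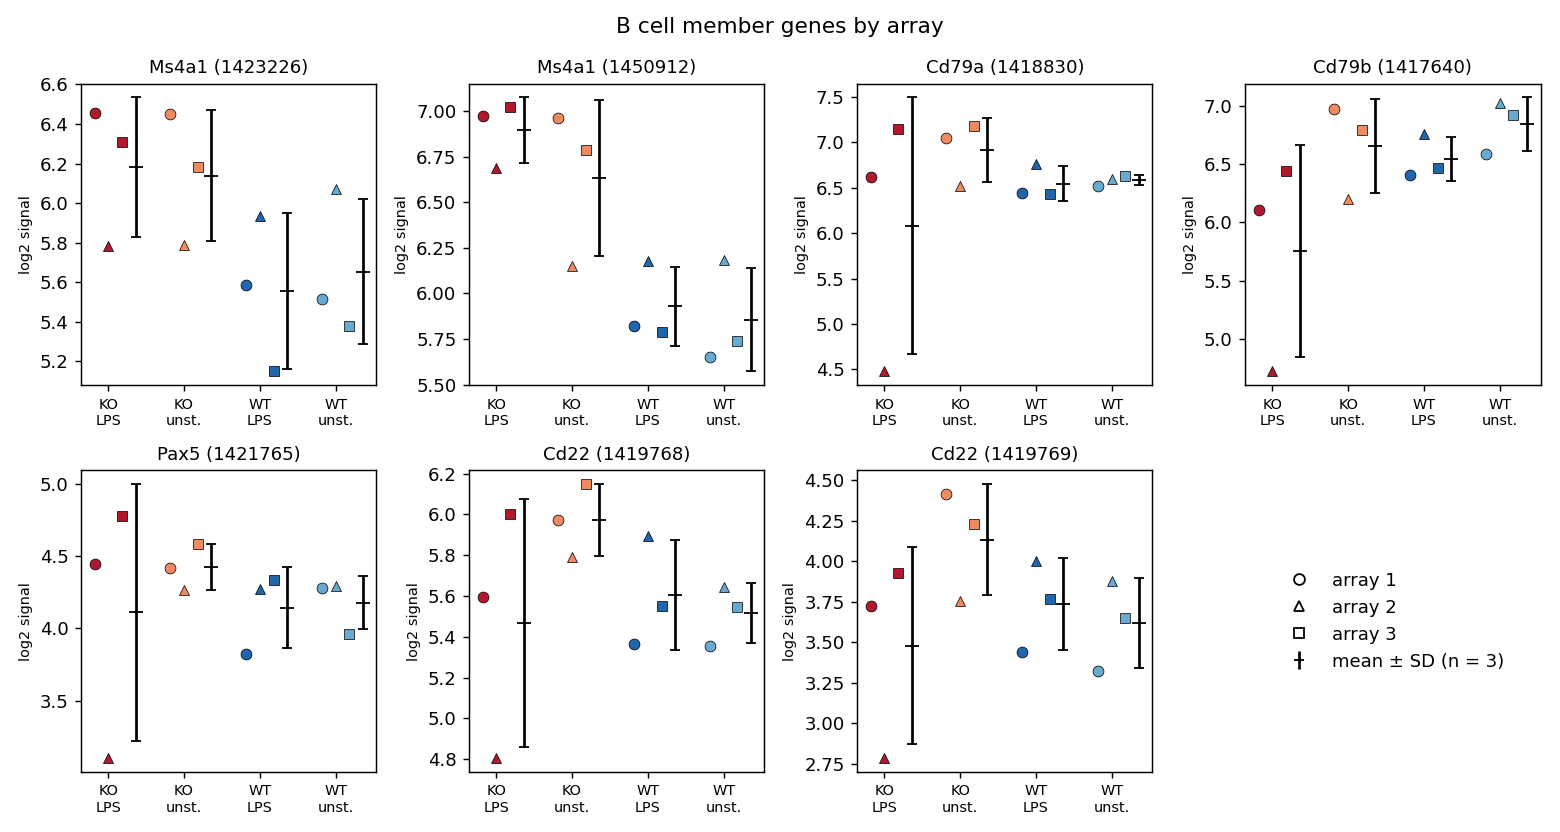
Log2 signal (y axis) of the 7 probe sets of Ms4a1, Cd79a, Cd79b, Pax5 and Cd22, 1 panel each, in KO LPS, KO unstimulated, WT LPS and WT unstimulated DCs (x axis). Each point is 1 array and each bar the mean of 3. Ms4a1 1450912_PM_at lies between 6.15 and 7.02 in KO and between 5.65 and 6.18 in WT, and KO LPS array 2 is the lowest of the 12 points for Cd79a, Cd79b, Pax5 and Cd22.

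Of the genes of the receptor's signalling chains, Cd79a was higher in KO by 0.34 after LPS once KO LPS array 2 was set aside, while Cd79b was not. Cd79a (chr7:24897497-24901858) read 6.62, 4.48 and 7.15 in KO LPS DCs, 7.05, 6.52 and 7.19 in unstimulated KO DCs, 6.44, 6.77 and 6.44 in WT LPS DCs and 6.52, 6.60 and 6.63 in unstimulated WT DCs. A single reading, 4.48 on KO LPS array 2, was far below the other 11, and the genotypes overlapped in both conditions. The KO LPS mean was 6.08 ± 1.41, or 6.89 ± 0.37 over the other 2 arrays, against 6.55 ± 0.19 in WT LPS DCs. Without stimulation the means were 6.92 ± 0.35 in KO and 6.58 ± 0.05 in WT DCs. The difference after LPS was −0.46 ± 0.49 with the array and 0.34 ± 0.20 without it, and that of unstimulated cells was 0.33 ± 0.49.

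Cd79b (chr11:106311341-106314562), the partner chain, had its highest mean in unstimulated WT DCs. It read 6.11, 4.72 and 6.44 in KO LPS DCs, 6.98, 6.20 and 6.80 in unstimulated KO DCs, 6.41, 6.76 and 6.47 in WT LPS DCs and 6.59, 7.02 and 6.93 in unstimulated WT DCs. KO and WT arrays overlapped in both conditions, and KO LPS array 2 was again the lowest of the 12. The KO minus WT difference was −0.79 ± 0.35 after LPS, −0.27 ± 0.21 without KO LPS array 2, and −0.19 ± 0.35 in unstimulated cells. For Cd79a and for Cd79b, no neighbouring pair of group means differed by more than the larger SD.

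Pax5 (chr4:44524748-44710694) had its highest mean in unstimulated KO DCs. It read 4.45, 3.10 and 4.78 in KO LPS DCs, 4.42, 4.27 and 4.59 in unstimulated KO DCs, 3.82, 4.27 and 4.34 in WT LPS DCs and 4.28, 4.29 and 3.96 in unstimulated WT DCs. Without stimulation the KO mean of 4.42 ± 0.16 was above the WT mean of 4.18 ± 0.19, by 0.25 ± 0.33, although KO array 2 lay within the WT range. That step was larger than the larger SD of the neighbouring groups, and the others were not. After LPS the difference was −0.03 ± 0.33, or 0.47 ± 0.17 without KO LPS array 2, when the other 2 KO arrays were above all 3 WT arrays.

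Cd22 (chr7:30865404-30880342) was measured by a pair of probe sets with closely matched profiles. Probe set 1419768_PM_at read 5.59, 4.80 and 6.00 in KO LPS DCs, 5.97, 5.79 and 6.15 in unstimulated KO DCs, 5.37, 5.90 and 5.55 in WT LPS DCs and 5.35, 5.65 and 5.54 in unstimulated WT DCs. All 3 unstimulated KO arrays were above all 3 unstimulated WT arrays, with a difference of 0.46 ± 0.24. After LPS the genotypes overlapped, and the difference was −0.14 ± 0.24, or 0.19 ± 0.17 without KO LPS array 2. Probe set 1419769_PM_at read 3.72, 2.79 and 3.93 in KO LPS DCs, 4.42, 3.75 and 4.23 in unstimulated KO DCs, 3.44, 4.0 and 3.76 in WT LPS DCs and 3.33, 3.88 and 3.65 in unstimulated WT DCs. Its genotype difference was 0.52 ± 0.28 in unstimulated cells and −0.26 ± 0.28 after LPS (0.09 ± 0.21 without KO LPS array 2), with overlap in both. For each Cd22 probe set, unstimulated KO DCs were the highest group, above the next group (WT LPS) by more than the larger SD, and the other groups were not separated by that much.

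Set side by side, the members' KO minus WT differences had a median of 0.46 over the 7 probe sets in unstimulated cells and of −0.14 after LPS, or 0.34 after LPS without KO LPS array 2. That array also entered the SEs of unstimulated cells, because all 4 groups share 1 spread. Without it these SEs were 0.18 for Cd79a, 0.19 for Cd79b, 0.16 for Pax5, and 0.16 and 0.19 for Cd22. A Benjamini-Hochberg adjusted p under 0.05 from limma, the threshold used throughout, was reached by 0.163% of all probe sets without stimulation, by 0.322% after LPS and by 2.12% averaged over both conditions. Member probe sets past it numbered 0, 0 and 1 of 7, the last being Ms4a1 1450912_PM_at, and nothing is read from these counts because this contrast chose the genes. KO arrays all above WT arrays were found for 1 of 7 member probe sets in unstimulated cells (Cd22 1419768_PM_at) and for 1 of 7 after LPS (Ms4a1 1450912_PM_at). Over all probe sets that held for 8.82% and 6.89%. The 2 conditions use different arrays, with 3 KO and 3 WT arrays in each.

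**Figure D2:**
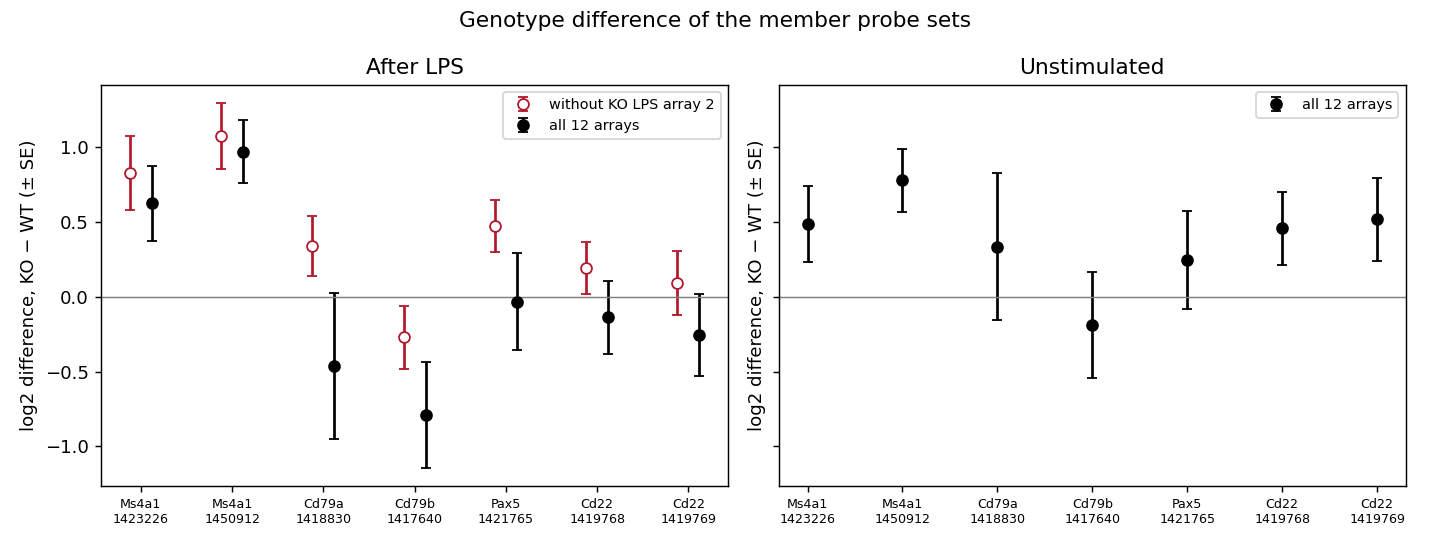
KO minus WT difference in log2 signal (y axis) for each of the 7 member probe sets (x axis), after LPS and unstimulated. Values after LPS are shown with all arrays and without KO LPS array 2, and unstimulated values with all arrays only. Whiskers are moderated SEs. Both Ms4a1 probe sets lie above 0 in each setting (0.49 to 0.97 with all arrays), while Cd79a, Pax5 and Cd22 lie below 0 after LPS with all arrays and above 0 without KO LPS array 2.

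The arrays with number 2 were low for these genes in both KO groups. KO array 2 was the lowest of its group for 7 of 7 probe sets after LPS and for 7 of 7 without stimulation. KO LPS array 2 was below the mean of KO LPS arrays 1 and 3 by 2.41 for Cd79a, 1.55 for Cd79b and 1.51 for Pax5. For Cd22 it was lower by 0.99 and 1.04, and for Ms4a1 by 0.60 (1423226_PM_at) and 0.31 (1450912_PM_at). The median of this difference over all probe sets was −0.03, and 0.0208% of probe sets had a value as low as that of Cd79a. Ms4a1 was thus the member least displaced on that array, where its 2 probe sets ranked 5th and 8th from the lowest of the 12 arrays.

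LPS left no detectable mark on the 5 genes in WT DCs. The differences between LPS and unstimulated WT cells were −0.10 ± 0.25 and 0.07 ± 0.21 for Ms4a1, −0.04 ± 0.49 for Cd79a, −0.30 ± 0.35 for Cd79b, −0.04 ± 0.33 for Pax5, and 0.09 ± 0.24 and 0.12 ± 0.28 for Cd22. None of the 7 probe sets passed (limma, adjusted p = 0.9998 for each, and 0 had an unadjusted p under 0.05, as 4.93% of all probe sets did), where 0.128% of all probe sets did. The 95% interval of Ms4a1 1450912_PM_at was −0.38 to 0.53 and that of Cd79a −1.10 to 1.03, so that changes of either sign inside these bounds are not excluded. The SEs share 1 spread over all 4 groups, so KO LPS array 2 entered these errors too. Without it the SE of Cd79a in WT was 0.18, and 0 of the 7 probe sets passed (limma, adjusted p between 0.819 and 0.99).

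In KO DCs the LPS differences were mostly negative, but none passed the threshold. They were 0.04 ± 0.25 and 0.26 ± 0.21 for Ms4a1 (limma, adjusted p = 0.98 and 0.736) and −0.83 ± 0.49 for Cd79a (adjusted p = 0.629). Cd79b differed by −0.90 ± 0.35 (adjusted p = 0.432) and Pax5 by −0.31 ± 0.33 (adjusted p = 0.811). Cd22 differed by −0.50 ± 0.24 and −0.65 ± 0.28 (adjusted p = 0.546 and 0.481). The unadjusted p of Cd79b was 0.0242 and that of Cd22 1419769_PM_at 0.0349, and 9.53% of all probe sets had an unadjusted p under 0.05 in this comparison, against 0.301% called. Over the 7 probe sets the median was −0.50 with all arrays and −0.03 without KO LPS array 2, without which Cd79a differed by −0.03, Cd79b by −0.38 and Pax5 by 0.19.

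Arrays with the same number within a genotype deviated together, so the LPS comparisons were also fitted with that number as a block. No member was called with the block either, although 0.367% of all probe sets were in WT and 0.685% in KO DCs. The smallest adjusted p values among the members were then 0.0729 for Cd79b in KO (−0.90 ± 0.18) and 0.0746 for Cd22 1419769_PM_at in KO (−0.65 ± 0.13). Both values include KO LPS array 2. Without it, and with no block, the differences were −0.38 ± 0.21 and −0.31 ± 0.21 (limma, adjusted p = 0.738 and 0.836).

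**Figure D3:**
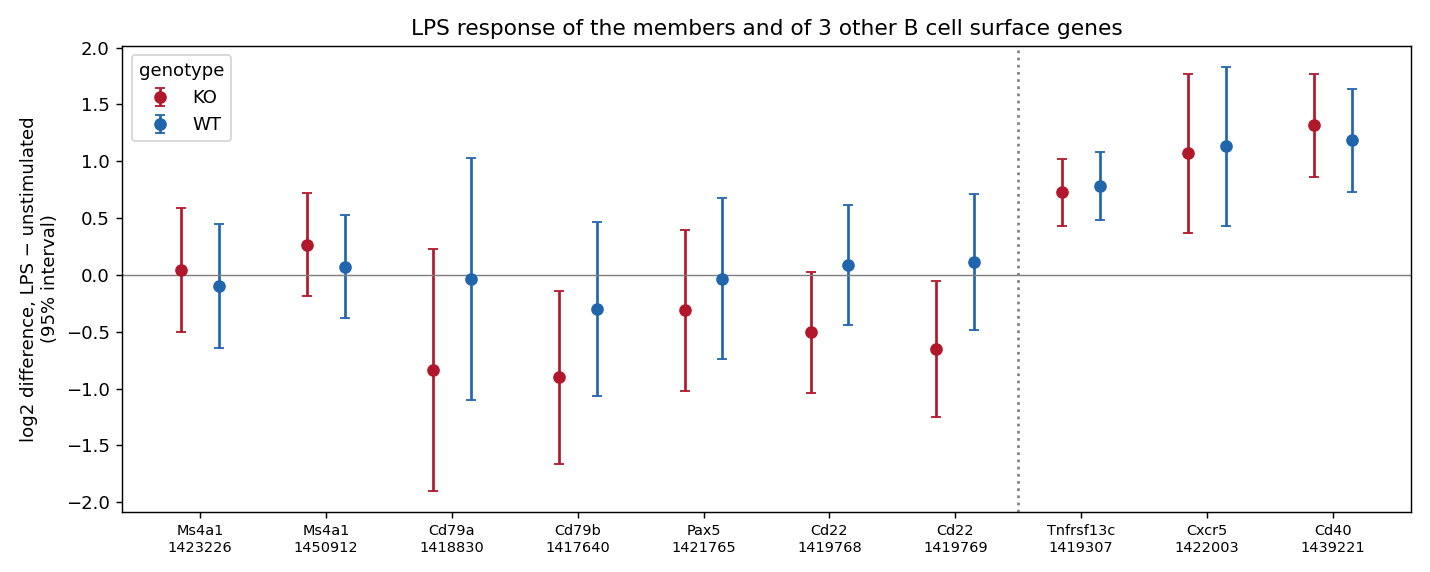
LPS minus unstimulated difference in log2 signal (y axis) in KO and WT DCs, for the 7 member probe sets and for Tnfrsf13c, Cd40 and Cxcr5 (x axis). Whiskers are 95% intervals, and the fit without KO LPS array 2 is not drawn. WT differences of the members lie between −0.30 and 0.12, and those of Cd79a, Cd79b, Pax5 and Cd22 in KO lie below 0.

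Whether LPS acted differently in the 2 genotypes was tested as the LPS difference of KO cells less that of WT cells. It was 0.14 and 0.19 for the Ms4a1 probe sets, −0.80 for Cd79a, −0.60 for Cd79b, −0.28 for Pax5, and −0.59 and −0.77 for Cd22. None passed (limma, adjusted p between 0.957 and 0.975, and 0 of 7 at an unadjusted p under 0.05, against 3.95% of all), and 0% of all probe sets did. Without KO LPS array 2 the values were 0.34 and 0.29 for Ms4a1, 0.004 for Cd79a, −0.08 for Cd79b, 0.23 for Pax5, and −0.26 and −0.42 for Cd22.

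Likeness between profiles was measured as the root-mean-square (RMS) difference of centred log2 values over the arrays, where 0 means parallel. The pair of Cd22 probe sets differed by 0.14 and the pair of Ms4a1 probe sets by 0.24. Cd79a and Cd22 1419768_PM_at differed by 0.39 over 12 arrays and by 0.13 without KO LPS array 2. Pax5 and Cd22 1419768_PM_at, the most alike pair of different genes over 12 arrays, differed by 0.20, and by 0.19 without that array. Ms4a1 1450912_PM_at and Cd79a differed by 0.80 and, without that array, by 0.35. Ms4a1 and Cd79b stayed apart, at 0.86 and 0.62. These values describe 12 arrays that share their groups and their amplification.

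Among 9621 genes, the 10 with the profile most like Ms4a1 1450912_PM_at were Scd1 (RMS difference 0.21), Bcar3 (0.23), Ebf1 (0.25), Acsl3 (0.25), Eya1 (0.25), Tsc22d1 (0.25), Gimap5 (0.25), Nlrc3 (0.26), Gpr31b (0.27) and Ppp1r16b (0.28), against 0.51 for a gene with no variation. Ebf1 encodes a transcription factor that acts with Pax5 in early B cells, and Scd1 encodes a fatty acid desaturase. Ebf1 read 4.03, 3.67 and 4.25 in KO LPS DCs, 4.17, 3.17 and 4.16 in unstimulated KO DCs, 3.62, 3.68 and 3.08 in WT LPS DCs and 3.34, 3.65 and 3.20 in unstimulated WT DCs, with array 2 the lowest of both KO groups and the highest of both WT groups. Without KO LPS array 2, 7 of the 10 genes were among the 10 most alike. By the same measure Cd22 ranked 2387, Pax5 5372, Cd79a 9318 and Cd79b 9428 over 12 arrays, and 143, 116, 82 and 7920 without KO LPS array 2.

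Other B lineage genes were taken from lists of receptor signalling, other surface, transcription and plasma cell genes, without the 5 members. Of 64 listed genes 54 were measured by a probe set with a single gene name, and the others were not analysed here. KO and WT DCs differed in 2 of the 54 without stimulation (0.163% of all probe sets) and in 2 after LPS (0.322%), and both times 1 was higher and 1 lower in KO. Averaged over both conditions 3 passed (2.12% of all), the same 2 genes and Sox4, a transcription factor of lymphoid progenitors, at 0.33 ± 0.07 (limma, adjusted p = 0.028). Without KO LPS array 2 the counts were 2, 2 and 6 (0.851%, 0.433% and 3.36% of all probe sets). Averaged over both conditions, Dapp1 (lower in KO), Irf8 and Vav1 (both higher) then passed as well. With arrays left out in turn Sox4 passed in 4 of 12 fits, those without a KO LPS array or without unstimulated WT array 2, and its adjusted p reached 0.0718 in the others. The median difference was 0.03 without stimulation and −0.11 after LPS, or 0.01 after LPS without KO LPS array 2, and the medians over all probe sets were near 0.

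Tnfrsf13c, which encodes the receptor for the B cell survival factor BAFF, rose in KO. It read 7.50, 7.53 and 7.85 in KO LPS DCs, 6.91, 6.67 and 7.12 in unstimulated KO DCs, 6.79, 6.87 and 6.82 in WT LPS DCs and 6.02, 6.20 and 5.91 in unstimulated WT DCs, with no overlap between the genotypes in either condition. The KO minus WT difference was 0.80 ± 0.14 after LPS (limma, adjusted p = 0.0304) and 0.86 ± 0.14 without it (adjusted p = 0.0314). When arrays were left out in turn, its adjusted p reached 0.185 in unstimulated cells, where it passed in 3 of 12 fits, those without a KO LPS array. After LPS it reached 0.133 and passed in 6 of 12 fits, failing without any WT LPS array, without unstimulated WT array 1 or 2 and without unstimulated KO array 1.

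Jchain, which encodes the joining chain of secreted polymeric antibodies and marks plasma cells, fell in KO. It read 4.75, 5.02 and 4.60 in KO LPS DCs, 4.29, 2.68 and 4.33 in unstimulated KO DCs, 8.44, 7.82 and 7.26 in WT LPS DCs and 8.38, 7.70 and 7.31 in unstimulated WT DCs. All KO arrays were far below all WT arrays. The difference was −3.05 ± 0.42 after LPS (limma, adjusted p = 0.0192) and −4.03 ± 0.42 without it (adjusted p = 0.0029). It passed in 12 of 12 fits that left out an array in unstimulated cells, and after LPS in 9 of 12, with adjusted p of 0.0605, 0.0796 and 0.0606 without WT LPS array 1, 2 or 3. Jchain had earlier been seen to be lower in KO, so its direction is not independent evidence.

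None of the other B lineage genes passed in the genotype comparison of either condition. Among 16 receptor signalling genes 0 passed, with Dapp1, an adaptor protein, at −0.89 after LPS (limma, adjusted p = 0.159), or −0.53 without KO LPS array 2 (adjusted p = 0.193). Averaged over both conditions Dapp1 passed in 3 of 12 fits that left out an array, those without a KO LPS array. Ptpn6, a phosphatase, was at 0.45 in unstimulated cells (adjusted p = 0.708). Of the 16 other surface genes only Tnfrsf13c passed, and Fcgr2b, an inhibitory antibody receptor, was at 0.76 after LPS (adjusted p = 0.149) and Cd24a at 0.72 without it (adjusted p = 0.623). Cd24a passed with the array number as a block over all arrays (limma, adjusted p = 0.0435 without stimulation and 0.0425 after LPS). With that block 222 and 373 of all probe sets were called. Same-numbered KO and WT arrays correlated at −0.001 to 0.19 in their deviations from group means, and those with number 3 at 0.10 to 0.19. The labels do not say what the number marks. In the transcription list 0 of 17 passed, with Ebf1 at 0.52 after LPS (adjusted p = 0.403) and 0.44 without it (adjusted p = 0.716). Jchain alone passed of 6 plasma cell genes, and Prdm1, the transcription factor of plasma cell differentiation, was at −0.34 without stimulation (adjusted p = 0.513).

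With LPS, 0 of the 54 genes passed in WT (0.128% of all probe sets) and 1 in KO DCs (0.301%). That gene was Cd40, a costimulatory receptor of B cells and DCs, higher with LPS in KO by 1.32 ± 0.21 (limma, adjusted p = 0.0168). Leaving out arrays in turn, Cd40 passed in 8 of 12 fits and failed without KO LPS array 1 or 3 or unstimulated KO array 1 or 2, with an adjusted p of up to 0.0636. In WT its difference was 1.19 ± 0.21 (adjusted p = 0.0612, 0.00366 with the array number as a block). With the block 3 of 54 genes passed in KO (0.685% of all probe sets) and 3 in WT (0.367%), each time Cd40, Cxcr5 and Tnfrsf13c, all higher with LPS. Cxcr5, the follicle-homing chemokine receptor, differed by 1.07 in KO (adjusted p = 0.283, 0.0101 with the block) and by 1.13 in WT (0.58, 0.011 with the block). With the block at its estimated correlation of 0.162 it did not pass (adjusted p = 0.135 in KO and 0.244 in WT). Tnfrsf13c differed by 0.73 in KO (0.0524, 0.0167 with the block) and by 0.78 in WT (0.059, 0.017 with the block). Without KO LPS array 2, and with no block, 4 of 54 genes passed in KO (0.464% of all probe sets) and 3 in WT (0.36%). Cd40, Cxcr5 and Tnfrsf13c passed in KO (limma, adjusted p = 0.00881, 0.00904 and 0.0424) and in WT (0.0206, 0.0374 and 0.0258), and Cxcr5 then differed by 1.5 in KO. Irf4, of the transcription and plasma cell lists, passed in KO only, at 1.28 (adjusted p = 0.00385). No member passed in either fit.

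Marker genes of other cells differed between the genotypes in the same RNA. The mean log2 signal of 7 B cell markers other than the members was 5.17 to 5.59 in KO LPS, 4.72 to 5.39 in unstimulated KO, 5.06 to 5.24 in WT LPS and 4.94 to 5.17 in unstimulated WT DCs, with overlap in both conditions. For 8 natural killer cell markers the ranges were 5.40 to 5.59, 5.34 to 5.61, 3.43 to 4.07 and 3.22 to 3.95 in the same order, and 4 of 8 were called higher in KO after LPS and 3 of 8 without it. For 6 neutrophil markers they were 7.69 to 9.69, 7.72 to 10.1, 4.0 to 5.67 and 3.98 to 5.67, and 3 of 6 were called higher in each condition. Of all probe sets 0.322% were called in either direction after LPS and 0.163% without it. Without KO LPS array 2 the calls after LPS were 4 of 8 natural killer cell and 2 of 6 neutrophil markers (0.433% of all probe sets). Without stimulation they were then 4 of 8 and 4 of 6 (0.851%). For 11 DC markers the ranges were 5.55 to 6.31, 6.12 to 6.24, 6.33 to 6.51 and 6.25 to 6.38, with 0 of 11 called in either condition. In each condition every KO array was below every WT array in this mean, but narrowly. The closest arrays read 6.236 against 6.246 without stimulation and 6.313 against 6.331 after LPS. The genes did not all go this way. Without stimulation 4 of 11 were higher in KO and the median difference was −0.05, with Cd209a at −1.11 and Itgax at 0.31. After LPS 1 of 11 was higher and the median was −0.31, or −0.09 without KO LPS array 2. For 7 T cell markers, named in the sample descriptions, the ranges were 3.46 to 3.68, 3.54 to 3.68, 3.48 to 3.82 and 3.54 to 3.92, with 0 of 7 called. Unstimulated KO array 2, lowest of its group for all member probe sets, had the lowest level of B cell markers and the highest of neutrophil markers (10.1) of its group. KO LPS array 2, also lowest for all member probe sets, had the lowest level of B cell markers of its group (5.17), and its neutrophil marker level of 9.53 was below the 9.69 of KO LPS array 1. The part of these other cells in the members' values was not tested.

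**Figure D4:**
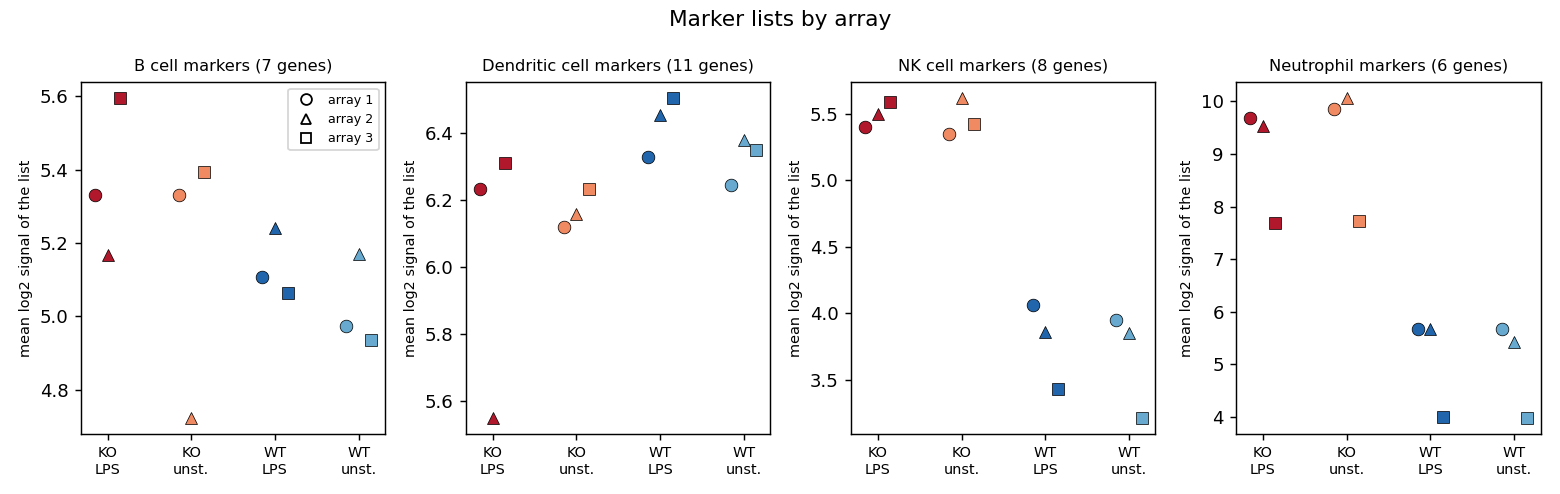
Mean log2 signal (y axis) of marker lists for several cell types, 1 panel each, in KO LPS, KO unstimulated, WT LPS and WT unstimulated DCs (x axis); each point is 1 array. Neutrophil and natural killer cell markers are higher on all KO arrays than on all WT arrays, and B cell markers overlap between KO and WT. The mean of the DC markers is lower on the KO arrays within each condition, by a narrow margin.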

How the data were processed

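RNA of splenic DCs was amplified with the WT-Ovation Pico kit (oligo(dT) plus random priming) and hybridised to Affymetrix arrays, per the labels' protocols. The deposited values are log2 signals that the authors normalised with RMA, per the submitters' processing notes, with no RMA version stated in the sources used here. The depth measure of sequencing does not apply, and the number of arrays (3 per group) limits the precision.

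Of 45141 probe sets, 104 controls, 551 with several gene symbols and 15588 without a symbol were left out of the tests. Group means of all 12 arrays were fitted with limma 3.58.1 in R 4.3.3 (lmFit, eBayes, 8 residual degrees of freedom), with p-values adjusted by Benjamini-Hochberg over all 28898 probe sets. Errors after ± are SDs for means and moderated SEs for differences. List genes were taken at their brightest probe set. All 5 members were named, and per list and contrast up to 6 called genes and up to 2 others with the largest change; likeness named 10 genes. Members and lists were chosen with earlier results of these data known. The script was tested on simulated data.

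Deviations from group means correlated between same-numbered LPS and unstimulated arrays at 0.243, 0.246 and 0.364 in KO and 0.335, 0.207 and 0.358 in WT DCs, all above 0.1, so the number was used as a block within genotype; the labels do not say what the number marks. Alternatives were other sets of probe sets, equal array medians, a robust trended eBayes, the 2 groups alone, blocks, and leaving out each array.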

Additional observations from a re-analysis of the deposited data

Results flagged for a closer look

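Both probe sets of Cd22, which measure the same gene, were flagged by direction. Every same-numbered pair of KO arrays moved one way with LPS and every pair of WT arrays the other. For 1419768_PM_at the LPS minus unstimulated differences were −0.38, −0.99 and −0.15 in KO and 0.01, 0.25 and 0.004 in WT DCs, which gives a difference of −0.59 between the genotypes. For 1419769_PM_at they were −0.69, −0.97 and −0.30 in KO and 0.11, 0.12 and 0.12 in WT DCs, a difference of −0.77. For 1419768_PM_at the WT differences of 0.01 and 0.004 were close to no change. The pattern over pairs was not tested, and the share of all probe sets that show it is not given here. The interaction did not pass in limma (adjusted p = 0.957), nor with the array number as a block (adjusted p = 0.794, unadjusted 0.0221 and 0.00211). The share of all probe sets at such unadjusted values with the block is not given here, so nothing is read from them. Without KO LPS array 2 the differences were −0.26 and −0.42.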

How the results depend on the processing

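With 3 arrays per group only large differences are detectable, and KO LPS array 2 sets the sign of several member values. No member probe set was called in either LPS comparison or in the interaction under any alternative. The median KO minus WT difference of the members (0.13 averaged over both conditions) ran from 0.018 to 0.34 when arrays were left out, the highest without KO LPS array 2. Leaving out arrays turned the sign of some uncalled values, whose ranges were as follows. LPS in WT: Cd22 −0.0581 to 0.21 and −0.0292 to 0.27, Cd79a −0.15 to 0.0197, Ms4a1 −0.29 to 0.11 and −0.0532 to 0.23, Pax5 −0.14 to 0.13. LPS in KO: Ms4a1 1423226_PM_at −0.13 to 0.24, Pax5 −0.65 to 0.19. LPS difference of KO less that of WT: Cd79a −1.33 to 0.00374, Ms4a1 −0.0691 to 0.34 and −0.0503 to 0.36, Pax5 −0.61 to 0.23. The counts of called B lineage genes below have in brackets the calls over all probe sets tested in that setting. In KO versus WT after LPS the number was 2 (93), but 1 with the robust trended eBayes (77) and 0 with the 2 groups alone (0). It was 3 with the replicate block over all arrays (373) and 0 to 2 with an array left out (2 to 511). Without stimulation it was 2 (47), but 1 with the robust trended eBayes (32) and 3 with the replicate block over all arrays (222). With an array left out it was 1 to 2 (6 to 246). Averaged over both conditions it was 3 (614), but 2 with the robust trended eBayes (535) and with a random block (406). It was 4 with probe sets above the median (758) and 7 with the replicate block over all arrays (1267). With an array left out it was 2 to 6 (260 to 1243). For LPS in KO it was 1 (87). It was 2 with 1 probe set per gene (67), probe sets above the median (86), equal array medians (96) and a random block (154). It was 0 with the 2 groups alone (8), 3 with the replicate block within genotype (198) and 0 to 4 with an array left out (42 to 134). For LPS in WT it was 0 (37). It was 1 with probe sets above the median (40), equal medians (38) and the block over all arrays (80), and 2 with a random block (74). It was 3 with the 2 groups alone (78) and with the replicate block within genotype (106), and 0 to 3 with an array left out (11 to 104). The cause of these shifts was not tested.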
